A study of Rattus norvegicus with 18 samples.

Results

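Heat shock proteins and their partner chaperones were followed in rat oculomotor nucleus and spinal cord at 3 ages. The set holds 10 genes: Hspa8, Hspa5, Hsp90aa1, Hsp90ab1, Hspb1, Cryab, Hspd1, Hspe1, Dnaja1 and Dnajb1. Members were taken as every probe set of the array whose gene symbol in the platform annotation is one of these names. This gave 11 probe sets that name 8 of the genes alone, out of 15923 probe sets on the array, and all 11 passed the filter on low signals, as did 9482 probe sets in all. Hspa8 and Hsp90aa1 were present only on 3 probe sets that each name a second gene, so their values are given by probe set, are assigned to neither gene and enter no count.

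The study asked how transcripts of these tissues change with age. Motor neurons of the oculomotor nucleus, in the midbrain, drive eye muscles, while those of the cord drive muscles of the body and limbs. The 6 groups were oculomotor nucleus at 6, 18 and 30 months and spinal cord at 6, 18 and 30 months, with 3 arrays each, 18 in all, from rats that the labels call F344BN. No group carried a treatment or a genetic change per the labels, the labels do not state the sex, and RNA of 4 animals was pooled for each array.

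Heat shock proteins are molecular chaperones: they bind unfolded or partly folded proteins, keep them from aggregating and help them fold. Hsp70 and Hsp90 proteins work in cycles of ATP binding and release that J-domain proteins and other co-chaperones start and time, the chaperonin of mitochondria folds proteins inside a closed chamber, and small heat shock proteins hold unfolded clients without ATP. In nervous tissue the small heat shock proteins Hspb1 and Cryab are known from motor and sensory neurons and from glia, and many members are induced by heat shock factor 1, which binds inverted repeats of the letters GAA, while Hspa5 is induced by unfolded protein in the endoplasmic reticulum.

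The 250 bases before the start of 4 members are shown because these genes stand for the 3 outcomes of the tissue comparison: Hspb1 was lower in the oculomotor nucleus, Hspa5 and Dnaja1 were higher, and neither probe set of Dnajb1 passed the test. The sequences are from RefSeq, build GRCr8, written on the gene's own strand and ending at the base before the start. Hspb1 is at chr12:26432302-26432551 (minus strand), Hspa5 at chr3:38452766-38453015 (plus strand), Dnaja1 at chr5:60638154-60638403 (plus strand) and Dnajb1 at chr19:41431142-41431391 (minus strand). Capitals mark matches to GAANNTTC, 2 heat shock units head to head, and, in Hspa5, the endoplasmic reticulum stress response element, searched on both strands as CCAAT, 9 letters of any kind and CCACG.
Hspb1: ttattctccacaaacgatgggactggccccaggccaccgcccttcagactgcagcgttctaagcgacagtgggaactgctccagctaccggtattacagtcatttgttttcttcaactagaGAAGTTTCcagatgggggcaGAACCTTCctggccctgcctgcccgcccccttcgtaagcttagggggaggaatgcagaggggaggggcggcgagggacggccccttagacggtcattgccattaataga
Hspa5: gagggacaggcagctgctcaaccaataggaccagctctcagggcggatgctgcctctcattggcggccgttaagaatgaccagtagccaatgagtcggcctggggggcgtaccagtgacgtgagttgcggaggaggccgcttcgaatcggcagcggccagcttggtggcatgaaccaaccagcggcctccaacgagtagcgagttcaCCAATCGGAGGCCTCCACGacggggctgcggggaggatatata
Dnaja1: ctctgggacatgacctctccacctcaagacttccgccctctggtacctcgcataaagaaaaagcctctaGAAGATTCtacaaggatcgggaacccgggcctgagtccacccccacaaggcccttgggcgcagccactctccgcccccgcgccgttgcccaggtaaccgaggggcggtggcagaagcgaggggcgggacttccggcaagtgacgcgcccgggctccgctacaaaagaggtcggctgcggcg
Dnajb1: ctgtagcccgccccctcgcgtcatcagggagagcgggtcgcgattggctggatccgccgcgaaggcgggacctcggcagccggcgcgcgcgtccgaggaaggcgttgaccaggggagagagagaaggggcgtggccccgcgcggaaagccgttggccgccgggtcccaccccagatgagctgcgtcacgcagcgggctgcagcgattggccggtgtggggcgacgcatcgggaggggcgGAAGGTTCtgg

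In Hspb1 the matches lay 129 to 122 and 109 to 102 bases before the start, in Dnaja1 181 to 174 bases before it and in Dnajb1 11 to 4 bases before it. The Hspa5 element lay 43 to 25 bases before the start. A promoter was found for 8 of the 10 members. The window of Hsp90ab1, chr9:22930173-22930422 on the plus strand, lies in part inside its RefSeq gene record, which begins at 22930249. GAANNTTC, which reads the same on both strands, was found in 6 of the 8, against 7.23% of 33469 rat promoters of this length. The 3-unit form, GAANNTTC followed directly by NNGAA and searched on both strands, was found in Hspa8, Hspd1 and Hspe1, against 0.663% of promoters. By its definition it holds a match to GAANNTTC. Hspd1 and Hspe1, the 2 subunits of the mitochondrial chaperonin, lie on opposite strands of chromosome 9. The starts in the promoter table are 289 bases apart, so that 211 bases of their windows are the same and 1 site is counted for both genes. The RefSeq gene record of Hspe1 begins at 64084327, which matches its start, while the record of Hspd1 does not match. The Hspd1 record runs from 64073610 to 64084332, so the 2 records overlap and the Hspd1 window lies inside the Hspd1 record. That site, 65 to 48 bases before the start of Hspe1 at chr9:64084262-64084279, holds 2 overlapping 3-unit matches and also lies inside the Hspd1 record.
Hspe1 and Hspd1 site: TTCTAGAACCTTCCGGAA

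The endoplasmic reticulum element was found in Hspa5 alone among the 8 and in 0.0657% of all promoters. A match describes letters in the window, not a bound site.

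Signals are on the linear scale of the deposited table. Group values are means ± SD of 3 arrays, differences are on the log2 scale as oculomotor nucleus minus spinal cord or older minus younger, and a probe set was called where limma's test across the 9482 probe sets gave a Benjamini-Hochberg adjusted p under 0.05. Because every array pools animals, p-values measure the spread between pooled samples. In such bulk samples fewer cells of a type and less RNA per cell cannot be told apart. On each array 18.0% to 21.0% of probe sets lay at or under the floor of 66.4, while the lowest member signal was 214. After the group means were taken away, a first principal component held 27.1% of the variance, and along it 4 arrays stood apart with scores between -16.6 and -12.1: oculomotor nucleus 30 months replicate 3, and spinal cord 6 months replicate 1, 18 months replicate 3 and 30 months replicate 3. At the other end, oculomotor nucleus 30 months replicate 2 had the highest score, 14.2. It is not among the 4 arrays that the text says stood apart. Chat, the enzyme that makes acetylcholine in motor neurons, had signals of 96.8 to 191 in the oculomotor nucleus and 316 to 438 in the spinal cord, so it was above the floor on all arrays. Isl1, a transcription factor of motor neurons, was at or under the floor on 7 of 9 oculomotor and 5 of 9 cord arrays.

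The comparison of tissues asked where the chaperones differ between the nucleus and the cord. The small heat shock proteins Hspb1 and Cryab were lower in the oculomotor nucleus, by 5.89-fold and 1.97-fold over the ages. Hspa5, Hsp90ab1, Hspd1 and Dnaja1 were slightly higher there, by 1.08-fold to 1.28-fold, Hsp90ab1 on 1 of its 2 probe sets and not on the brighter one (adjusted p = 0.141 by limma), and Hspd1 with a call that was lost under 21 of 31 alternative settings. For Hspe1 and Dnajb1 no difference passed the test. In all, 7 of the 11 probe sets were called, against 47.2% of all probe sets tested, so the share called was near the background. Of these, 5 were higher and 2 were lower, against 23.6% and 23.6% of all probe sets. The median log2 difference of the 11 was 0.12, and that of all probe sets tested was 0.01.

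**Figure D1:**
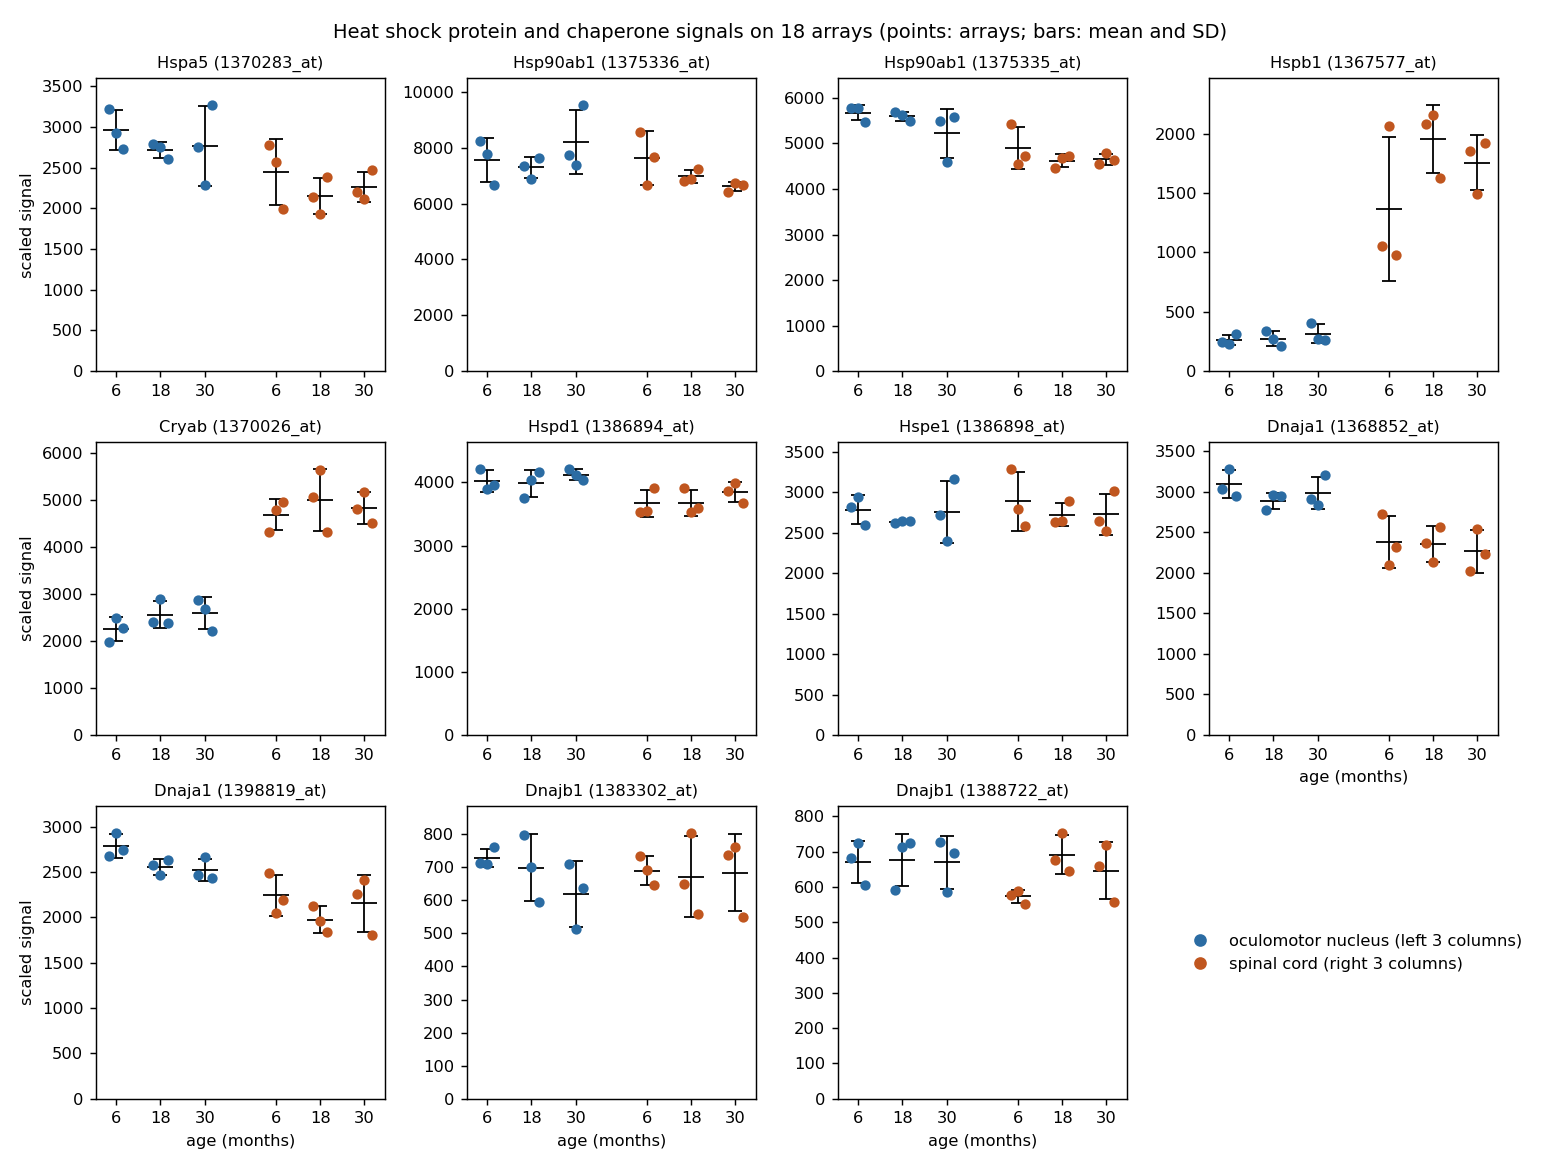
Scaled signal (linear axis from 0) of the 11 probe sets that name a member alone, with age in months on the horizontal axis and 1 point per array. Oculomotor nucleus is on the left and spinal cord on the right of each panel, and the bars give the mean and SD of 3 arrays. Hspb1 and Cryab are the panels in which every oculomotor array lies below every cord array.

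Hspb1, also called Hsp27 or Hsp25, protects actin filaments and holds unfolded proteins, and its gene lies at 26430640 to 26432301 on chromosome 12. In the oculomotor nucleus its signals were 242, 232 and 313 (6 months), 336, 269 and 214 (18 months) and 406, 271 and 263 (30 months). In the spinal cord they were 1057, 2068 and 978 (6 months), 2085, 2157 and 1629 (18 months) and 1859, 1491 and 1921 (30 months). The highest oculomotor array, 406, lay below the lowest cord array, 978, so the tissues did not overlap. The log2 difference over the ages was -2.56 (SE 0.14, adjusted p = 2.29e-11), and only 9 of the 9482 probe sets had a lower one. By age the difference was -2.31 at 6 months (adjusted p = 9.3e-07), -2.85 at 18 months (adjusted p = 6.38e-08) and -2.51 at 30 months (adjusted p = 3.88e-07). Without the 4 arrays that stood apart the difference over the ages was -2.59.

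Cryab, the alpha-B crystallin that binds Hspb1 in mixed oligomers and is abundant in oligodendrocytes and muscle, lies at 59989885 to 59995532 on chromosome 8. Its signals in the oculomotor nucleus were 1979, 2503 and 2289 (6 months), 2412, 2894 and 2394 (18 months) and 2879, 2681 and 2213 (30 months). In the spinal cord they were 4331, 4785 and 4972 (6 months), 5065, 5644 and 4332 (18 months) and 4824, 5187 and 4513 (30 months). Again the tissues did not overlap, with 2894 as the highest oculomotor and 4331 as the lowest cord signal. The log2 difference over the ages was -0.98 (SE 0.07, adjusted p = 1.42e-09), with -1.06, -0.96 and -0.91 at 6, 18 and 30 months. Hspb1 and Cryab also met, at every age, a rule built on the study's design text, in which all pairs of arrays differ the same way and the average fold exceeds 1.7. The average folds, lower in the oculomotor nucleus, were 5.31, 7.41 and 5.83 for Hspb1 and 2.10, 1.97 and 1.89 for Cryab at 6, 18 and 30 months. No other member met it in a comparison of tissues or of ages.

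**Figure D2:**
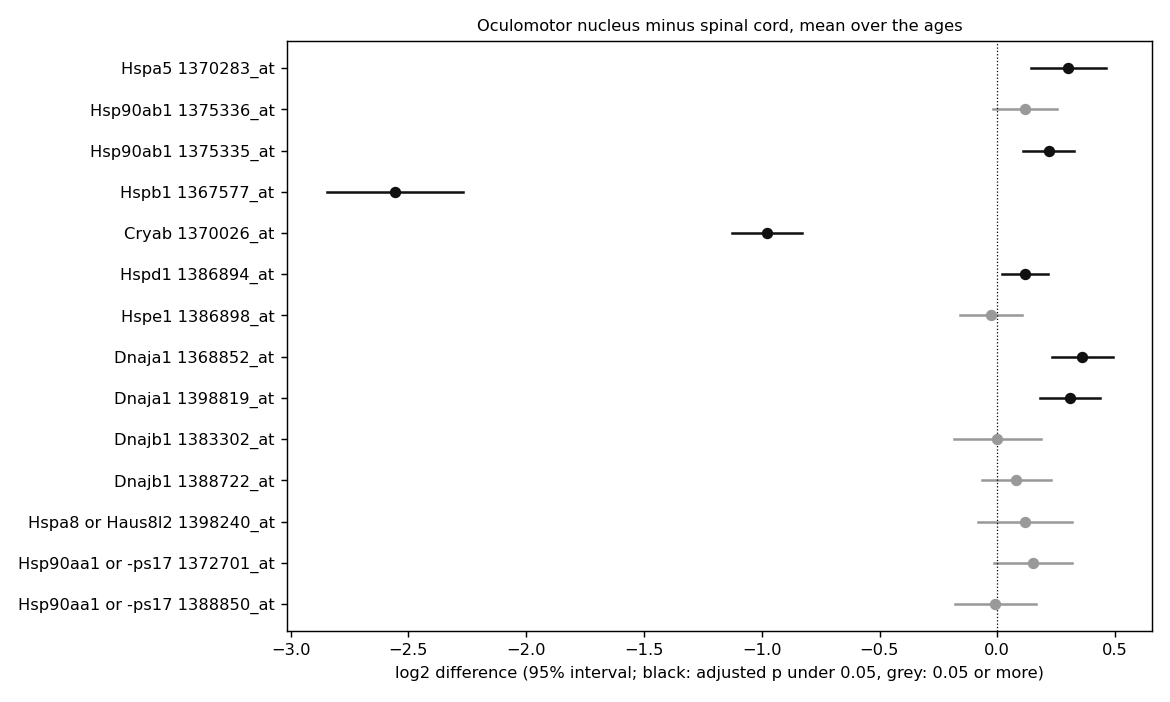
Log2 difference (oculomotor nucleus minus spinal cord, mean over the ages) of each probe set with its 95% interval, black where the adjusted p was under 0.05. The lowest 2 values are Hspb1 at -2.56 and Cryab at -0.98, while all other probe sets lie between -0.03 and 0.36. The last 3 rows are the probe sets that also name a second gene.

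Markers of several cell types moved with the lower Hspb1 and Cryab signals. Summed signals of the motor neuron list (6 genes) were 1182 to 1570.0 in the oculomotor nucleus and 3766 to 4827 in the spinal cord. Those of the meninges and extracellular matrix list (10 genes) were 1994 to 3648 against 6482 to 10220.1, and those of the blood and vessel list (8 genes) were 6347 to 11637 against 13206 to 22744. None of these 3 lists overlapped between the tissues. The microglia list (12 genes) did not overlap at any one age, with 11815 to 14783 in the oculomotor nucleus and 15508 to 23888 in the cord at 30 months. The summed oligodendrocyte list (10 genes) was 37961 to 47864 in the oculomotor nucleus and 42154 to 59703 in the cord, which overlapped at 30 months and separated at 6 months (40140.3 to 45337 against 46655 to 59703) and 18 months (39508 to 42325 against 43337 to 56920.2). Its mean log2 signal per array, 11.26 to 11.46 against 11.61 to 11.91, did not overlap at all. Of its 10 genes 7 were called, all lower in the oculomotor nucleus, against 23.6% of all probe sets called lower over the ages. The myelin genes Mag (2530 to 3236 against 3642 to 5065), Mog (2135 to 2452 against 2657 to 4176) and Cnp (5299 to 6278 against 6543 to 8575) were among those whose arrays did not overlap. The summed astrocyte list (10 genes) likewise separated at 6 and 18 months and overlapped at 30 months. By mean log2 signal the astrocyte list also overlapped at 18 months (11.3007 to 11.4191 against 11.4159 to 11.5345). Gfap, the intermediate filament of astrocytes, was 5023 to 7690.0 against 9431 to 14116. The neuron list (12 genes) overlapped at each age. The choroid plexus list (6 genes) overlapped as well but went the other way, with a median of 1055 in the oculomotor nucleus and 897 in the cord. It was 952 to 4783 in the oculomotor nucleus and 804 to 1061 in the cord. Calca, a motor neuron neuropeptide, was at or under the floor on 7 of 9 oculomotor arrays and on none of the cord arrays. The part of these markers in the result was not tested.

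Transcripts of skeletal muscle, a tissue that holds much Hspb1 and Cryab, differed between the cord samples. The summed signal of the muscle list (17 genes) was 5352 to 6405 in the oculomotor nucleus and 6047 to 19183 in the cord. Acta1, the actin of skeletal muscle, had 2008, 3631 and 253 on the cord arrays at 6 months, of which the second also had the highest Hspb1 signal of that age. At 30 months the summed list was 5605 to 6405 in the oculomotor nucleus and 6095 to 7158 in the cord. Of the 7 muscle genes that passed the filter 2 were called, both lower in the oculomotor nucleus, against 21% of all probe sets. Acta1 overlapped between the tissues at that age (231 to 437 against 296 to 344), while Tnnc2, the troponin C of fast muscle, did not (113 to 199.8 against 361 to 440.0). With the muscle list as a covariate the Hspb1 difference over the ages was -2.33 (adjusted p = 6.22e-09) and that of Cryab -0.98 (adjusted p = 2.68e-07). In a second fit, which dropped the 3 cord samples with the highest muscle signal, the Hspb1 difference was -2.40 and that of Cryab -0.98. Beyond these fits the part of muscle transcripts in the result was not tested.

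**Figure D3:**
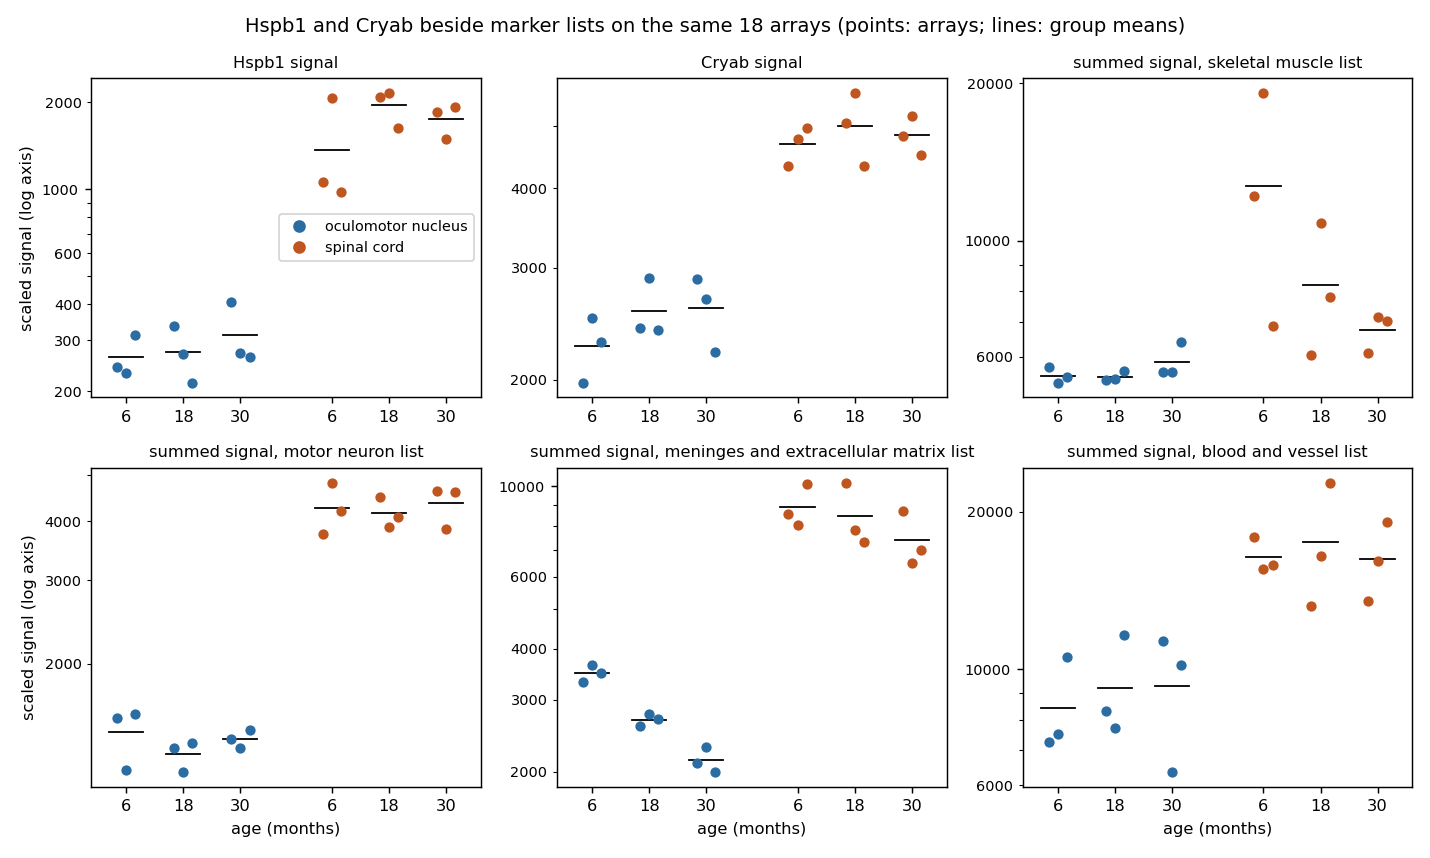
Signals of Hspb1 and Cryab and summed signals of 4 marker lists on the same arrays (log axes, which differ between panels), with age in months on the horizontal axis, 1 point per array and a line at each group mean. Oculomotor nucleus is on the left and spinal cord on the right. The muscle list overlaps between the tissues (5352 to 6405 against 6047 to 19183), while the other 3 lists do not.

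Among the Hsp70 members, Hspa5, the chaperone BiP of the endoplasmic reticulum, was higher in the oculomotor nucleus. Its signals there were 3219, 2928 and 2727 (6 months), 2788, 2754 and 2601 (18 months) and 2748, 2284 and 3268 (30 months). Cord arrays read 2779.9, 2563 and 1996 (6 months), 2133, 1934 and 2385 (18 months) and 2198, 2109.7 and 2471 (30 months). The tissues separated at 18 months and overlapped at the other ages. The log2 difference over the ages was 0.30 (SE 0.08, adjusted p = 0.00298), and at no single age did it pass the test (0.28, 0.34 and 0.28, adjusted p = 0.124, 0.0648 and 0.145 at 6, 18 and 30 months). The probe set that names both Hspa8, the constitutive Hsc70 of the cytosol, and Haus8l2 had a lowest, median and highest signal of 8575, 8977 and 12393 on oculomotor arrays and 7398, 7943 and 12037 on cord arrays. These overlapped, with a log2 difference of 0.12 (95% interval -0.08 to 0.32, adjusted p = 0.331).

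For Hsp90ab1, the constitutive Hsp90 of the cytosol, the 2 probe sets gave different calls. Probe set 1375335_at had 5770.4, 5775 and 5480.3, then 5689, 5619 and 5487, then 5489.8, 4603 and 5577 on the oculomotor arrays of 6, 18 and 30 months. The cord values at the same ages were 5418, 4547 and 4719.7, then 4454, 4689 and 4725, then 4548, 4781 and 4630.4. Only 30 months overlapped, through the oculomotor array at 4603. The log2 difference was 0.22 (SE 0.05, adjusted p = 0.00179). Probe set 1375336_at, designed from the same source sequence, ranged from 6679.7 to 9526 (median 7635) in the oculomotor nucleus and from 6415 to 8566 (median 6811) in the cord, with a log2 difference of 0.12 (95% interval -0.02 to 0.25, adjusted p = 0.141). Both probe sets had a positive difference, so the direction was shared and the calls were not. The probe sets that name Hsp90aa1, the inducible Hsp90, together with the pseudogene Hsp90aa1-ps17 had differences of 0.15 (1372701_at, adjusted p = 0.128) and -0.01 (1388850_at, adjusted p = 0.945).

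Of the J-domain members, Dnaja1, a farnesylated co-chaperone of Hsc70, was higher in the oculomotor nucleus on both probe sets. Probe set 1368852_at had 3038, 3279.9 and 2948 (6 months), 2776, 2952 and 2941 (18 months) and 2915, 2836 and 3209 (30 months) in the oculomotor nucleus. Its cord signals were 2728, 2099 and 2319 (6 months), 2369.5, 2127 and 2567 (18 months) and 2019, 2542 and 2232 (30 months). The tissues did not overlap over all ages, with 2776 as the lowest oculomotor and 2728 as the highest cord signal, which is 1 of 3 member probe sets with that property, against 14.2% of all probe sets. The log2 difference was 0.36 (SE 0.06, adjusted p = 8.44e-05), and it was called at each age, although the call at 18 months (adjusted p = 0.0466) was lost under 18 of 31 alternative settings. Probe set 1398819_at ranged from 2433 to 2932 (median 2629) in the oculomotor nucleus and from 1803 to 2486 (median 2126) in the cord, with a log2 difference of 0.31 (SE 0.06, adjusted p = 0.000313). Here the tissues overlapped over all ages and separated within each age.

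Dnajb1, the Hsp40 that activates inducible Hsp70, overlapped between the tissues on both probe sets. Probe set 1383302_at had a lowest, median and highest signal of 512, 709 and 798 on oculomotor arrays and 549, 690.2 and 804 on cord arrays, with a log2 difference of 0.00 (95% interval -0.19 to 0.19, adjusted p = 0.998). Probe set 1388722_at had 585, 696 and 726 against 553, 645 and 753, with a log2 difference of 0.08 (95% interval -0.07 to 0.23, adjusted p = 0.36).

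The mitochondrial chaperonin is built from Hspd1, the barrel, and Hspe1, its lid. Hspd1 had 4212, 3894 and 3954 (6 months), 3750.1, 4042 and 4159 (18 months) and 4214, 4117 and 4033 (30 months) in the oculomotor nucleus. In the cord it had 3538, 3552 and 3918, then 3907, 3527 and 3588, then 3871, 3984 and 3679 at the same ages. The tissues overlapped except at 30 months. The log2 difference of 0.12 (SE 0.05, adjusted p = 0.0459) passed the test narrowly, and without the 4 arrays that stood apart it did not (0.10, adjusted p = 0.132). Hspe1 ranged from 2399 to 3167 (median 2645) in the oculomotor nucleus and from 2522 to 3290.3 (median 2649.7) in the cord, with a log2 difference of -0.03 (95% interval -0.16 to 0.10, adjusted p = 0.755).

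Within single ages fewer probe sets were called. At 6 months 4 of the 11 probe sets were called, against 26.1% of all probe sets: Hspb1 and Cryab, which were lower in the oculomotor nucleus, and both probe sets of Dnaja1, which were higher. At 18 months 5 were called, against 26.2%, with Hsp90ab1 (1375335_at, log2 difference 0.28, adjusted p = 0.0279) joining these 4. At 30 months 3 were called, against 21%: Hspb1, Cryab and Dnaja1 (1368852_at). The replicate number within each age was also used as a block, at 6 and 18 months too. The numbers were taken to pair the samples of 30 months from the data and not from the labels, and pairing was not established. With the block Hsp90ab1 (1375336_at, log2 difference 0.30) was called as well at 30 months (adjusted p = 0.0434 by limma, against 0.061 without the block). The groups did not overlap for 6 of the 11 probe sets at each age, against 40.7%, 44.9% and 33.5% of all probe sets at 6, 18 and 30 months. Whether these tissue differences themselves changed with age was tested directly. For none of the 11 did the tissues differ in the change from 6 to 18 months or from 6 to 30 months by limma's test, no probe set of the 9482 was called in either test (0%), and 0 of the 11 had an unadjusted p under 0.05, against 5.07% and 5.47% of all probe sets. For Hspb1 the tissue difference was 0.54 further below 0 at 18 than at 6 months, a value of -0.54 (95% interval -1.25 to 0.17, adjusted p = 0.983 by limma).

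The comparisons of ages asked whether the chaperones change as the animal grows old. No member was called between any ages in either tissue by limma, and few probe sets were called at all. In the oculomotor nucleus 0 of 11 were called at 18 against 6 months (0% of all probe sets), 30 against 6 months (0.211%) and 30 against 18 months (0.0105%). In the spinal cord 0 of 11 were called at 18 against 6 months (0.728%), 30 against 6 months (0.221%) and 30 against 18 months (0.0105%). At an unadjusted p under 0.05 there were 2 probe sets, both at 18 against 6 months in the cord, where 10.3% of all probe sets had one. Of all probe sets 10.7% and 2.14% had one at 30 against 6 and 30 against 18 months in the cord, and 3.39%, 8.12% and 4.71% at 18 against 6, 30 against 6 and 30 against 18 months in the oculomotor nucleus. The rule built on the design text called 0 members between ages.

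**Figure D4:**
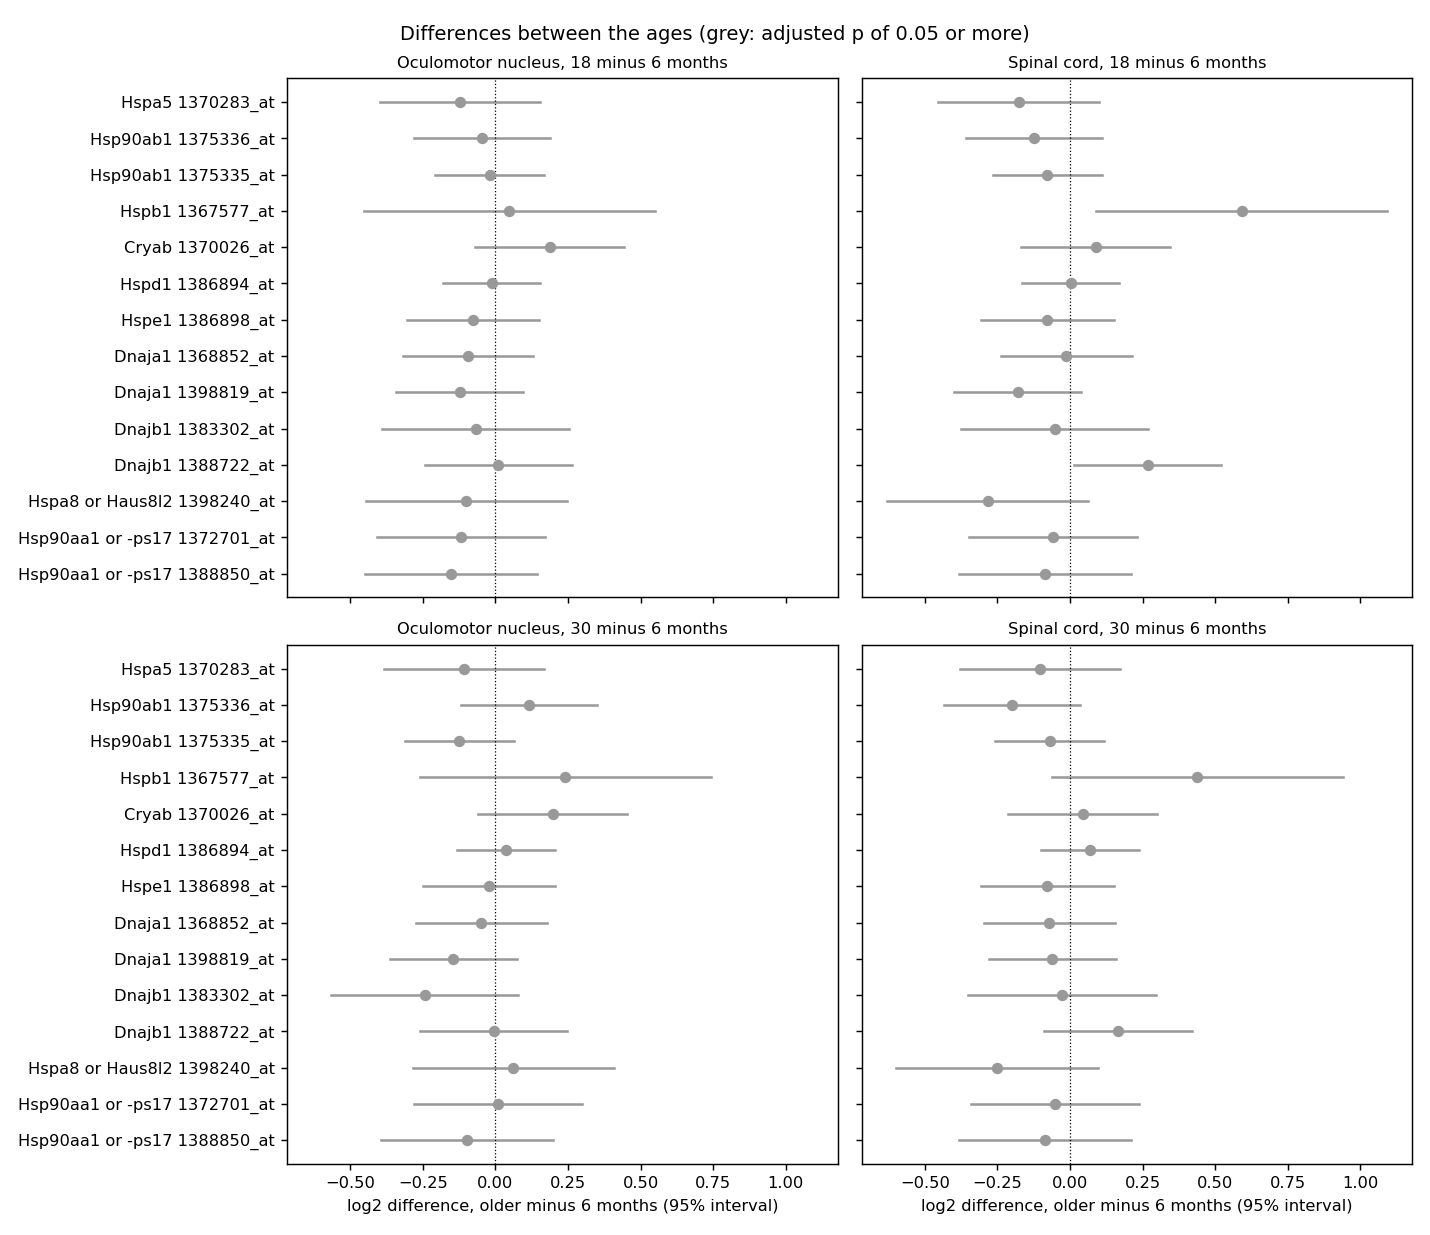
Log2 difference (older minus 6 months) of each probe set with its 95% interval, with 18 against 6 months in the upper panels and 30 against 6 months in the lower, oculomotor nucleus on the left and spinal cord on the right. All points are grey, since no adjusted p was under 0.05. Hspb1 in the cord at 18 months, 0.59, is the point farthest from 0.

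Hspb1 in the cord had the largest age difference among the members. Its mean signal there was 1368 ± 608 at 6 months, 1957 ± 286 at 18 months and 1757 ± 232 at 30 months. The 18-month arrays (2085, 2157 and 1629) overlapped with those of 6 months (1057, 2068 and 978) through the second array of 6 months, the one richest in muscle transcripts. The log2 difference was 0.59 at 18 against 6 months (95% interval 0.09 to 1.09, adjusted p = 0.376 by limma) and 0.44 at 30 against 6 months (adjusted p = 0.546). In the oculomotor nucleus Hspb1 averaged 262 ± 44.1, 273 ± 61.3 and 313 ± 80.6 at 6, 18 and 30 months, and these groups overlapped. Its log2 difference at 30 against 6 months was 0.24 (95% interval -0.26 to 0.74).

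Cryab averaged 2257 ± 263, 2567 ± 283 and 2591 ± 342 on the oculomotor arrays of 6, 18 and 30 months, against 4696 ± 330 (SD), 5014 ± 658 and 4841 ± 338 on those of the cord. These groups overlapped, with a log2 difference at 30 against 6 months of 0.20 in the oculomotor nucleus (95% interval -0.06 to 0.45, adjusted p = 0.716 by limma) and 0.04 in the cord (95% interval -0.21 to 0.30, adjusted p = 0.94). Dnajb1 on probe set 1388722_at was the other value under 0.05 before adjustment: its 18-month cord arrays, 675, 753 and 645, all lay above those of 6 months, 578, 588 and 553 (log2 difference 0.27, adjusted p = 0.457 by limma), a separation that 13.6% of all probe sets had. Its other probe set, 1383302_at, had -0.05 in the same comparison. Dnaja1 on probe set 1398819_at had 2464, 2663 and 2433 at 30 months in the oculomotor nucleus, all below its 2680.1, 2932 and 2746 at 6 months, which made it the 1 member probe set without overlap there, against 13.9% of all probe sets. Hspa5 was lower at 30 than at 6 months by 0.11 on the log2 scale in the oculomotor nucleus and by 0.10 in the cord. The 95% interval ran from -0.38 to 0.17 in each tissue and included 0.

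For the members as a whole, the differences at 30 against 6 months lay between -0.24 and 0.24 in the oculomotor nucleus (median -0.02) and between -0.20 and 0.44 in the cord (median -0.06). The medians of all probe sets were 0.00 in both comparisons. The intervals had a median half-width of 0.23 on the log2 scale. Hspb1 had the widest intervals, and no age difference of a member lay outside -0.66 to 1.09 at the ends of its interval.

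Within groups, the members varied together in part. After each group mean was taken away, Hspa5 and Hspe1 had a Pearson r of 0.89 over the 18 arrays, and Hspd1 and Hspe1, the subunits of the same chaperonin, had an r of -0.46. Hspb1 and Cryab had an r of 0.26. The 2 probe sets of Hsp90ab1 had an r of 0.73, those of Dnajb1 0.47 and those of Dnaja1 0.33. These arrays share the 4 that stood apart: Hspa5, Hspe1, Hsp90ab1 (1375336_at) and the 3 probe sets with a second gene lay above their group means on 4 of 4, and Cryab and Hspd1 on 0 of 4. The correlations describe these arrays, and no p is given.

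The genes most like each member by this measure, among 6957 named genes, were Etfdh (r = 0.93) and Psmd3 (0.85) for Hspb1, and Trim47 (0.91) and Fam13c (0.87) for Cryab. They were Ssbp1 (0.93) and Rida (0.92) for Hspa5, Cltc (0.88) and Rtn1 (0.87) for Hsp90ab1, and Brwd1 (0.83) and Neurl1 (0.81) for Hspd1. For Hspe1 they were Atp6v1d (0.95) and Ssbp1 (0.93), for Dnaja1 Tmem199 (0.89) and Armcx4 (0.88), and for Dnajb1 Rgs5 (0.84) and Tnfsf12 (0.83).

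The other chaperones were followed as 8 lists of 135 genes, of which 118 were on the array and 105 passed the filter. Between the tissues 48 of the 105 were called, a share of 45.7%, near the 47.2% of all probe sets. Of these, 34 were higher and 14 lower in the oculomotor nucleus, against 23.6% and 23.6% of all probe sets. The same shares are the background for the counts by list that follow. Without overlap between the tissues were 14.2% of all probe sets. Between ages 0 of the 105 were called in any of the 6 comparisons by limma, with 2 to 7 genes at an unadjusted p under 0.05 in each.

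The third small heat shock protein called in the tissue comparison was Hspb8, which works with Bag3 to send misfolded proteins to autophagy. Hspb8 was lower in the oculomotor nucleus by 1.79-fold (log2 difference -0.84, adjusted p = 1.42e-07), and its arrays did not overlap between the tissues. Bag3, its partner, was lower as well (log2 difference -0.61, adjusted p = 5.05e-06), also without overlap. Of the 3 other small heat shock proteins that passed the filter, Hspb8 was the 1 called, while Hspb6 had -0.28 (adjusted p = 0.0651) and Hspb7 -0.20 (adjusted p = 0.121). The muscle, vessel and meninges markers given above moved in the same direction. Under 31 alternative settings, the muscle covariate among them, Hspb8 had -0.88 to -0.79 and Bag3 -0.68 to -0.53. The part of the markers in these values was not otherwise tested.

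In the list of the Hsp70 family and its nucleotide exchange factors 5 of 13 genes were called, 2 higher and 3 lower. The lowest was Hspa2, an Hsp70 known for its role in sperm development, with a log2 difference of -1.40 (adjusted p = 1.04e-10) and no overlap between the tissues. Hspa12a, a distant Hsp70 relative, was lower (-0.30) and Stub1, the ubiquitin ligase CHIP, was higher (0.40). Of the Hsp90 co-chaperones 6 of 13 were called, 5 of them higher: among them Ppid, cyclophilin 40, had a log2 difference of 0.46 without overlap, Tomm34 0.49, Unc45a, a myosin chaperone, 0.28 and Stip1, which joins Hsp70 to Hsp90, 0.25.

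Of 13 J-domain genes 6 were called, against 47.2% of all probe sets. All 6 were higher in the oculomotor nucleus, against 23.6% of all probe sets called higher. Dnajc12, a co-chaperone of the enzymes that hydroxylate aromatic amino acids, was higher by 2.38-fold (log2 difference 1.25, adjusted p = 9.15e-12), without overlap. Dnajc6, the auxilin that uncoats clathrin vesicles, had 0.46, Dnajc27 0.44 and Dnajc5, the cysteine string protein of synaptic vesicles, 0.29, each without overlap. Of the cytosolic chaperonin TRiC and its prefoldin helpers 7 of 14 were called, 6 higher, with Tcp1 at 0.33 without overlap, Cct8 at 0.30, Cct6a at 0.27 and Pfdn4 at 0.27.

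**Figure D5:**
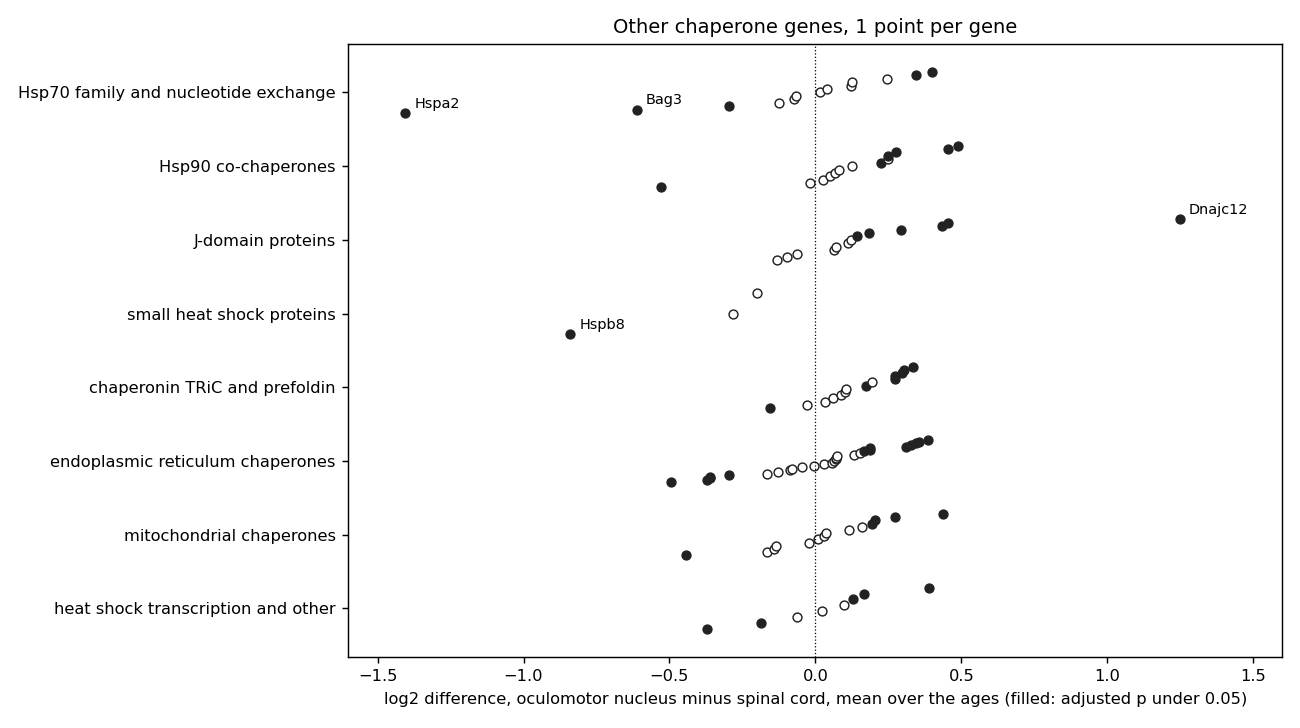
Log2 difference (oculomotor nucleus minus spinal cord, mean over the ages) of the 105 other chaperone genes that passed the filter, 1 point per gene and 1 row per list, filled where the adjusted p was under 0.05. Most genes lie within 0.5 of 0, and the genes farthest out are Hspa2 at -1.40 and Dnajc12 at 1.25. Points are spread vertically within a row for legibility.

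Of the endoplasmic reticulum chaperones 13 of 27 were called, 8 higher and 5 lower. Selenos, which draws misfolded proteins out of the reticulum, had -0.49 without overlap, Ppib, a cyclophilin, -0.36, P4hb, protein disulfide isomerase, -0.30 and Erp44, a retention factor, 0.38. Among the mitochondrial chaperones 5 of 14 were called, 4 higher, with Timm9 at 0.44, Grpel1, the exchange factor of mitochondrial Hsp70, at 0.27, Timm10 at 0.20 and Timm8a1 at -0.44. Of the heat shock transcription factors and other stress genes 5 of 8 were called, 3 higher: Hsf2, a heat shock transcription factor, had 0.39 without overlap, Hsbp1, which binds heat shock factors, 0.17, Clu, an extracellular chaperone, -0.19 and Hmox1, heme oxygenase, -0.37.

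Between the ages the gene with the smallest p in each list is given, and none passed the test. At 30 against 6 months in the cord these were Hspb7 (log2 difference -0.78, adjusted p = 0.0841 by limma), a small heat shock protein of heart and muscle, Hspa4 (0.56), Ppid (0.17), Dnajc14 (-0.14), Cct8 (0.34), Dnajb9 (0.27), Htra2 (0.28) and Hsbp1 (-0.20). The summed muscle list was 6095 to 7158 on these 30-month arrays and 6856 to 19183 on those of 6 months. At 30 against 6 months in the oculomotor nucleus they were Hspa12a (-0.23), Fkbp4 (-0.14), Dnajc5 (-0.15), Hspb6 (-0.15), Pdcl3 (-0.30, adjusted p = 0.375 by limma), Atf4 (-0.20), Clpp (-0.39) and Hsf4 (0.22). The median over the 105 genes was 0.01 in the cord and -0.02 in the oculomotor nucleus, and that over all probe sets was 0.00 in both.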

How the data were processed

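RNA of 18 pooled samples was hybridised to Affymetrix RA230 arrays. Per the submitters' processing notes the authors used Affymetrix Microarray Suite 5.0; the deposited table holds 1 linear intensity per probe set and array, without detection calls, and its 2% trimmed mean of 500.1 shows that the authors scaled it. No step after that is given in the sources used here. The number of arrays limits the precision.

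Intensities were brought to a common trimmed mean, raised to a floor at the pooled 20th percentile (66.4) and taken to log2. Controls (57) were removed, and probe sets with a mean above the pooled 40th percentile (a signal of 176.0) were kept, 9482 of 15923. The platform annotation, updated to current RefSeq names by Entrez identifier, named 1 gene on 12789 probe sets, several on 312 and none on 2822. With limma 3.58.1 in R 4.3.3, 6 group means were fitted to all arrays with a mean-variance trend, giving 12 residual degrees of freedom. The 12 contrasts were tested 2-sided, with Benjamini-Hochberg adjustment over 9482 probe sets. The method was tested on simulated data, with 200 of 9482 probe sets changed in the cord at 30 months. At 30 against 6 months it called 57.5% of 1.5-fold, 92% of 2-fold and 100% of 4-fold changes. The false calls were 2, 6 and 7, so many changes near 1.5-fold would be missed.

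A gene on several probe sets has as its main one the probe set with the highest mean. Other chaperones are named by a rule: up to 4 called genes per list by smallest p, and otherwise the gene with the smallest p, given here for the comparisons of 30 with 6 months. The 2 named genes most like a member are those with the highest Pearson r after the group means are taken away. Members and gene lists were chosen with earlier results of these data known. Promoters are from RefSeq, and no protein sequence was used here. Replicates are those of the labels, 3 per group, although the design text speaks of 4. Alternatives to the normalization, floor, filter, variance model and samples were run, and the closing section gives their effect.

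Whether replicate numbers pair the samples was checked from the correlation of same-numbered arrays of the tissues after the group means were taken away. At 30 months all 3 pairs were over 0.1 (0.12, 0.23 and 0.50), and the third pair is made of 2 arrays that stood apart. The numbers were taken to pair the samples of that age, from the data and not from the labels. The 3 values are not independent, because the mean of each group of 3 arrays was taken away. Pairing was not established by these values. The second oculomotor array of that age had a higher r with the first cord array (0.29) than with the second (0.23). The third had 0.42 with the third cord array of 18 months, so such values also arose between samples of different ages. Over all groups 8 of 45 same-numbered pairs were over 0.1, against 14 of 90 pairs with other numbers. At 6 and 18 months none of the 6 pairs was over 0.1.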

Additional observations from a re-analysis of the deposited data

How the results depend on the processing

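Precision is limited by 3 pooled arrays a group without detection calls, and marker transcripts of muscle, meninges and vessels differed between arrays. Of the single values recomputed under up to 31 alternatives, 5982 kept their side of the threshold (301 of them changed sign, none of which was called), 62 lost the call, 30 gained it and no call reversed. Hspb1 and Cryab were called in all 4 tissue comparisons under every alternative run, with log2 differences over the ages of -2.63 to -2.33 and -1.03 to -0.94. Hspd1 lost its call under 21 of 31 alternatives, and Dnaja1 (1368852_at) lost that of 18 months under 18. The count of members called between ages was 0 under every alternative run. The tissue count at 6 months, 4 of 11, was 2 with the muscle list as a covariate, 2 by the rule of the design text, and 2 to 5 with 1 array left out in turn, 2 without the second cord or the second oculomotor array of that age. The count at 18 months, 5, was 2 by the rule of the design text and 3 to 6 with 1 array left out in turn, 3 without the first or second cord array or any 1 oculomotor array of that age. The count at 30 months, 3, was 5 with the 4 arrays that stood apart as a block, and 2 to 5 with 1 array left out in turn, 5 without the second oculomotor array of that age. Where the alternative leaves out arrays the fit has fewer samples, and in such fits counts rose as well as fell. The cause of these changes was not tested.

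Over all probe sets, 20 were called at 30 against 6 months in the oculomotor nucleus, 8 without the filter and 4 to 69 with 1 array left out. In the cord 69 were called at 18 against 6 months, 3 without the 3 arrays richest in muscle transcripts, 127 with the 4 arrays as a block and 15 to 100 with 1 array left out. At 30 against 6 months in the cord 21 were called, 0 with each tissue fitted apart, 72 with the 4 arrays as a block and 0 to 43 with 1 array left out. At 30 against 18 months in the cord the count of 1 reached 14, at 18 against 6 months in the oculomotor nucleus that of 0 reached 2, for the tissue difference in the change from 6 to 18 and from 6 to 30 months those of 0 reached 8 and 2, and between the tissues at 6 months that of 2478 fell to 1442 with the muscle covariate.

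The replicate numbers were taken to pair the samples at 30 months only, from the data and not from the labels. With the number within each age as a block, 4 of the 11 probe sets were called between the tissues at 30 months in place of 3, Hsp90ab1 (1375336_at) being the one gained, and no other call of a member changed at that age. With the replicate number as a block over all arrays, 6 of the 11 probe sets were called over the ages in place of 7, since the adjusted p of Hspd1 was 0.0531, and the count at 30 against 6 months in the oculomotor nucleus was 9 of all probe sets in place of 20.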
